A study of Homo sapiens with 346 samples.

Results

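Live cells labelled HepG2 were split by how much RNA of mitotic genes they held, and the groups were chosen by the measured levels of 10 genes. Each cell was given a mitotic score, the mean of log2(TPM + 1) over TOP2A, MKI67, CCNB1, CDC20, PLK1, AURKA, CENPF, UBE2C, BUB1 and TPX2, where TPM is the abundance of transcripts, corrected for their length and scaled to 1 fixed total in each cell. The 22 cells with the highest score and the 22 with the lowest were compared, which made 44 of the 67 live HepG2 cells used and of 334 cells with values in the whole series. The other 23 live cells lay between them and are called the middle cells. The table held 68 live HepG2 columns, of which live column 69 was equal to fixed column 77 in all 29551 genes, and both of these were left out.

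The score ran from 8.06 to 0.40. The last high cell scored 5.54 and the next cell 5.50, while the last middle cell scored 3.61 and the next, low, cell 3.50, so the limits of the groups did not fall in gaps of the score. The widest gaps lay inside the groups, between 6.71 and 5.86 with 15 cells above it and between 2.64 and 1.76 with 12 cells below it. Among the genes that made the score, the difference in mean log2(TPM + 1) between high and low cells ran from 2.49 for MKI67 to 6.78 for PLK1, the kinase whose median was 367 TPM in high and 0 TPM in low cells. These values chose the groups. All other genes were measured in the same libraries as the score, so every difference between the groups is given as a description and no test was made.

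The study asked what methanol does to single-cell RNA sequencing, with full-length Smart-seq2 libraries of HepG2, a line from a liver tumour, and of HCT-116, a line from a colon tumour. Both lines were unmodified and grown in DMEM with serum and antibiotics, without any other treatment. Live cells were sorted and lysed without fixation, and fixed cells had been held in 80% methanol for 1 week in the freezer. HepG2 cells came from 2 experiments that neither the labels nor the column names tell apart, so the 67 live cells count as 1 sample and all spreads below are over cells. No synchronisation and no DNA measurement is described, so the groups rest on the RNA of 10 genes and not on an observed cell cycle stage.

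The cells did not carry the marker RNA of hepatocytes. Of 17 hepatocyte markers, 10 were listed in the table and 1, SERPINA1, had a mean of at least 1 TPM, at 2.31 TPM, while AHSG was at 0 in all cells and the summed level of the list ran from 0.00 to 19.4 TPM in high and from 0.00 to 35.9 TPM in low cells. Markers of luminal epithelium were abundant, with KRT8 at a mean of 11532 TPM, KRT18 at 6414 TPM, GATA3 at 218 TPM and ESR1, the estrogen receptor, at 48.4 TPM. Of 15 such markers, 13 were above 1 TPM in at least 50% of the cells, and the name HepG2 is used here as a label. Markers of intestinal epithelium reached a mean of at most 0.26 TPM, and those of blood and stroma at most 1.59 TPM (HBB).

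Cells enter mitosis when cyclin-dependent kinase 1, bound to cyclins A and B, phosphorylates a great many proteins, and they leave it when the anaphase-promoting complex marks these cyclins and other proteins for destruction. Most genes for the spindle, the kinetochore and cytokinesis are transcribed late in the cycle, in G2 and mitosis, by the MuvB complex with B-MYB and by FOXM1, and are kept off early in the cycle through a promoter element called CHR, which often stands near CCAAT boxes bound by NF-Y. Genes for DNA replication are driven earlier by E2F factors, ahead of and during S phase.

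The promoters of 5 of the genes that differed most are shown because they hold these elements in different numbers. They were taken from the RefSeq table (GRCh38.p14), cover the 250 bases before the start of the first listed transcript, and carry matches to CCAAT (or ATTGG on the other strand) and to the CHR letters TTTGAA or TTCGAA in capitals. They belong to CCNB2 at chr15:59104896-59105145 (plus strand), KIF20A at chr5:138178862-138179111 (plus strand), PTTG1 at chr5:160421605-160421854 (plus strand), RRM2 at chr2:10122489-10122738 (plus strand) and KIF2C at chr1:44739587-44739836 (plus strand).
CCNB2: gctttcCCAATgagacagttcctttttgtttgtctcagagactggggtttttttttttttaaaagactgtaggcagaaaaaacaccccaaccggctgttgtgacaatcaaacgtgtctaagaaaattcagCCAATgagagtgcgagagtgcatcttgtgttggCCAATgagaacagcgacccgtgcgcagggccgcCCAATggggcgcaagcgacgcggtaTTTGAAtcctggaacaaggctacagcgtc
KIF20A: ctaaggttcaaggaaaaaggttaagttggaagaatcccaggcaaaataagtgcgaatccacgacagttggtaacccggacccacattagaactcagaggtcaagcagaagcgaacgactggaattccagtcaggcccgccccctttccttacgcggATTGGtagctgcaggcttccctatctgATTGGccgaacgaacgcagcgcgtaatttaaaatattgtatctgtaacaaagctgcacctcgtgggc
PTTG1: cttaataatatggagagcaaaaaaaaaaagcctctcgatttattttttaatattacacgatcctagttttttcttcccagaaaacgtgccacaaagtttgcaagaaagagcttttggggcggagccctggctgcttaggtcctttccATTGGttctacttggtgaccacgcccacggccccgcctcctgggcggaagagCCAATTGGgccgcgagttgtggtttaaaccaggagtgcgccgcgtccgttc
RRM2: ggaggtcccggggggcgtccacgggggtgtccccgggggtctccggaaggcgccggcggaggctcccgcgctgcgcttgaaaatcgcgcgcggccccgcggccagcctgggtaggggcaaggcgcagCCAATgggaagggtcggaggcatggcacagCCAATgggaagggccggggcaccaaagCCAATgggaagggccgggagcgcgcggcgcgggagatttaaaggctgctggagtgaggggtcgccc
KIF2C: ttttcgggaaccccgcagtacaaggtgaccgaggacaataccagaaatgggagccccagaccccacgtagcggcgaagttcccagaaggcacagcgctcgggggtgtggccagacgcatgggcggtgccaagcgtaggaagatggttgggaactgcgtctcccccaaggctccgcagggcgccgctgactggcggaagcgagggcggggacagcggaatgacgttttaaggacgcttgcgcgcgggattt
CCNB2 held 4 CCAAT boxes and TTTGAA at positions -29 to -24 from the start. KIF20A held 2 CCAAT boxes, PTTG1 and RRM2 held 3 each, with a pair in PTTG1 that overlaps on opposite strands, and KIF2C held no match in these bases. A match of letters is a description and not a binding site.

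Between high and low cells, 12577 genes with a mean of at least 1 TPM over the 67 cells were compared. Differences below are of mean log2(TPM + 1), high minus low, a scale that understates the change of genes near 0, and a gene is counted as higher or lower when this difference is at least 1 in size. By this count 1361 genes lay past the limit, of which 1212 were higher (9.64% of those compared) and the rest lower (1.18%). The median over all 12577 genes was 0.30 and not 0, so values of lists are read against 0.30. Among the 5355 genes with a mean of at least 10 TPM the median was 0.55, which bears on lists of abundant genes. Each cell was also rescaled by the median ratio of its genes, which takes 0.44 off the difference between the groups. After this rescaling 444 of 11691 genes were higher and 271 lower, and list counts after it are read against these. The middle cells lay between the other groups for 1028 of the higher genes and above the high cells for 13.9% of them. Against the low cells 5.6% of genes were higher and 0.891% lower in the middle cells, and against the middle cells 2.07% were higher and 0.843% lower in the high cells. The values are shares of the RNA, and the amount of RNA in a cell was not measured.

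The libraries of the groups differed in quality as well as in the score. High cells had a median of 2.55 M reads and 14154 detected genes, against 2.25 M and 13767 in low cells. The share of reads assigned to listed transcripts had a median of 79.2% in high and 69.3% in low cells, and listed genes took 92.3% and 83.9% of all TPM. A single high cell (live column 67, rank 4, score 7.80) stood apart, with 20.5% of its reads assigned, 8950 genes detected and 871 TPM of ribosomal RNA, against a median of 65555 TPM in the high cells. Without it 1252 genes were higher, the number of higher genes in each of 27 lists changed by at most 2, and list medians moved by at most 0.17. Among low cells, live columns 32 and 25 also stood apart, with 51.1% and 52.9% of reads assigned. FOS was at 0 in both, and KRT8 was at 993 and 971 TPM, against at least 3479 TPM in the other low cells. With cells under 60% of assigned reads left out, 21 high and 20 low cells remained, and 1058 of 12556 genes were higher. The median over all genes was 0.27 there, and more genes were lower than with all cells. High and low cells were also matched to within 3 percentage points of assigned reads. In these 7 pairs 710 of 12577 genes were higher and 671 lower, with a median of 0 over all genes. List counts in the pairs are read against these. The pairs took in high columns 44, 17, 19 and 18, which had 71.7%, 74.3%, 75.4% and 76.8% of reads assigned. They scored 5.86, 5.78, 6.91 and 5.59, against a median of 7.05 in all high cells. Matching thus changed the mix of scores along with the assigned share, and their parts in the values of the pairs were not separated. The part of library quality in single genes was not tested beyond the values given beside them.

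**Figure D1:**
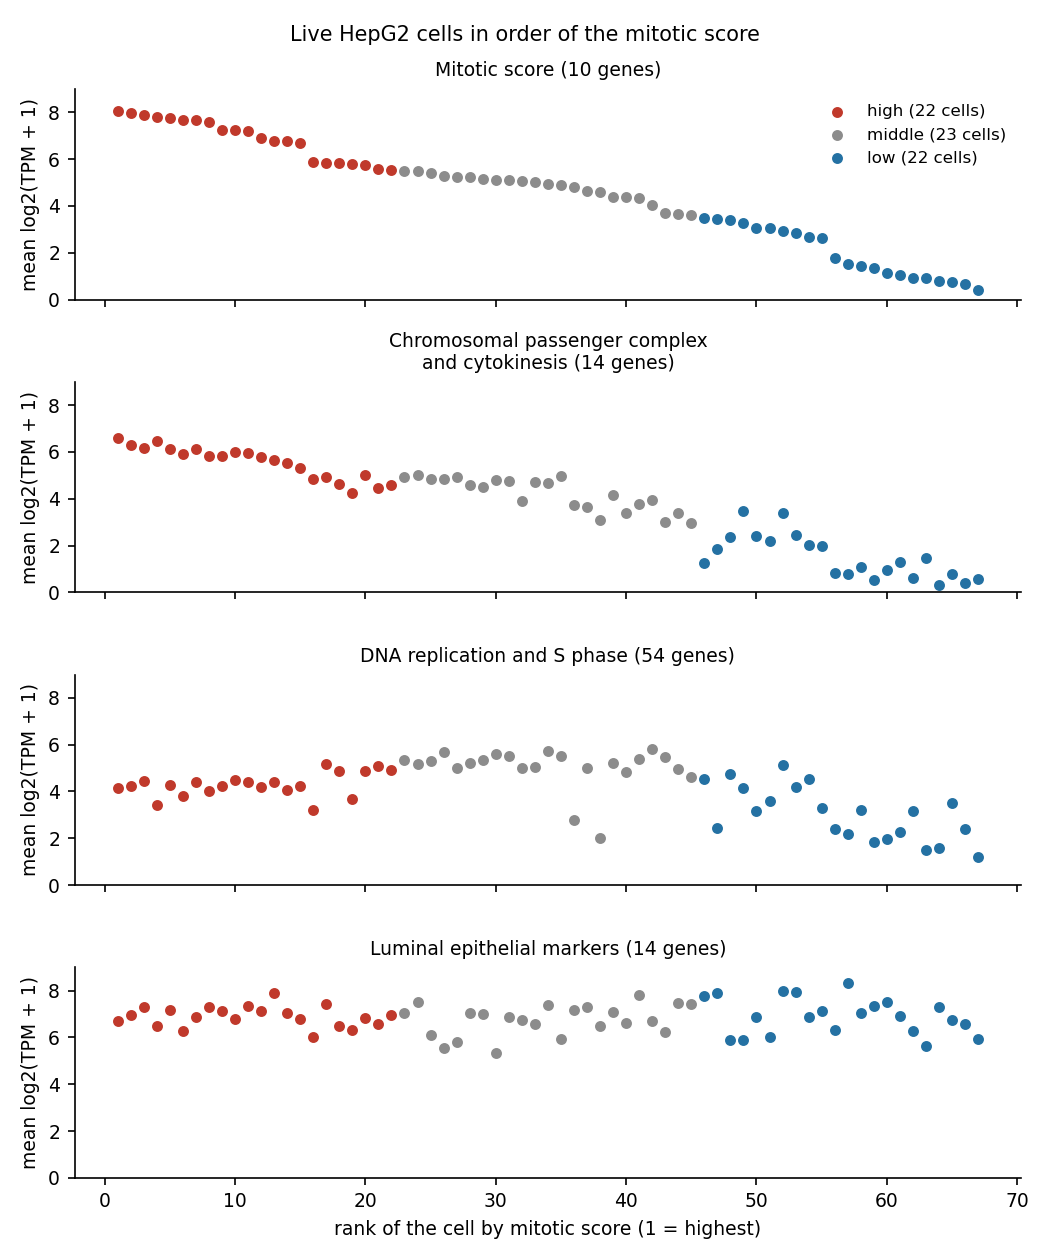
The 67 live HepG2 cells in order of the mitotic score (x axis, rank 1 is the highest), with the mean log2(TPM + 1) of the 10 score genes and of 3 lists on the y axes; each point is a cell, coloured by group. The passenger complex list falls along the ranks, the S phase list is highest in the middle cells, and the luminal markers overlap in all groups, with means of 6.91 in high and 6.92 in low cells.

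The chromosomal passenger complex and cytokinesis genes differed most among the lists. All 14 measured members were higher in high cells, against 9.64% of all genes, with a median difference of 4.26, and the mean of their levels was 5.56 ± 0.70 (SD, n = 22 cells) in high cells and lower by 4.06 in low cells (SD 0.93, n = 22). This mean ran from 4.24 to 6.60 in high and from 0.31 to 3.49 in low cells, so the groups did not overlap. AURKB, the kinase of the complex, which corrects faulty attachments of chromosomes, had the largest difference of all genes outside the score, 5.99. It ran from 40.9 to 372 TPM in high cells with a median of 184.5 TPM, and from 0 to 121.9 TPM in low cells with a median of 0. In 13 low cells AURKB was listed at 0, and 17 of 22 high cells lay above every low cell. Its partner BIRC5 (survivin), which brings the complex to the centromere, had a median of 186.4 TPM in high and 3.92 TPM in low cells, a difference of 5.13. CDCA3, which helps to trigger mitotic entry, had 64.6 TPM against 0.33 TPM, and its lowest high cell, 17.8 TPM, stood above its highest low cell, 12.9 TPM. INCENP, the scaffold of the complex, was the least abundant measured member, at 4.67 TPM against 0.49 TPM.

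Motor proteins of the spindle were also higher. Of 14 measured mitotic kinesins, 13 were higher, with a median difference of 2.996, and the mean of the list did not overlap between the groups. KIF20A, which carries the passenger complex to the midzone of the late spindle, ran from 7.77 to 232 TPM in high cells with a median of 125.2 TPM. In low cells KIF20A ran from 0 to 18.9 TPM with a median of 0, and the difference was 5.61. KIF20A was also low in the middle cells, with a median of 9.66 TPM. KIF2C, which takes microtubules apart at centromeres, had a median of 86.3 TPM in high, 22.7 TPM in middle and 0 TPM in low cells, where 16 of 22 cells were listed at 0. KIF22, a chromosome motor, was the most abundant kinesin at a median of 212 TPM against 56.9 TPM, and its groups did not overlap although its difference was 1.97. KIF23 and KIF4A, motors of the midzone where the cell divides, differed by 4.38 and 3.67. KIF24, a motor of centrioles that holds back cilia, was the measured kinesin within the limit, at 0.69.

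Of the 28 spindle and microtubule regulators, 27 were higher, with a median difference of 3.22. FAM64A (PIMREG) had a median of 94.1 TPM in high and 0 TPM in low cells, and a difference of 5.26. DLGAP5, which bundles microtubules at kinetochores, ran from 17.6 to 178.9 TPM in high and from 0 to 5.92 TPM in low cells, so the groups lay apart. FAM83D, which places casein kinase 1 on the spindle, also lay apart, from 12.9 TPM up in high cells and up to 7.49 TPM in low cells. SPAG5 (astrin), which steadies the attachment of microtubules, had a median of 45.5 TPM in high cells and was listed at 0 in 15 of 22 low cells.

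The tubulins that build the spindle differed with its regulators, at far higher levels. Of 11 measured tubulin genes, 10 were higher, and their summed level was 6601 TPM in the median high cell and 768 TPM in the median low cell. TUBA1B, an alpha tubulin, ran from 1298 to 3626 TPM in high cells with a median of 2529 TPM, and from 42.6 to 1153 TPM in low cells with a median of 276 TPM. TUBB4B, a beta tubulin, had a median of 1287 TPM against 129.2 TPM, and TUBA1C 1056 TPM against 128.2 TPM. High and low cells did not overlap for any of these 3 genes. TUBG1, the gamma tubulin that seeds microtubules, had 122.1 TPM against 23.2 TPM. Among the other beta tubulins, TUBB6, TUBB, TUBB2A and TUBB3 differed by 2.68, 2.66, 2.54 and 2.31 and TUBB2B by 1.03, and TUBA4A, an alpha tubulin, by 1.23. TUBA1A was within the limit, at 103.6 TPM in high and 141.9 TPM in low cells with a difference of 0.52 in the mean of the logs. Tubulin genes are close copies of each other, so that reads may be shared out among them by the quantification. In the 7 matched pairs the tubulin median was 1.36 and TUBA1B differed by 2.17.

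**Figure D2:**
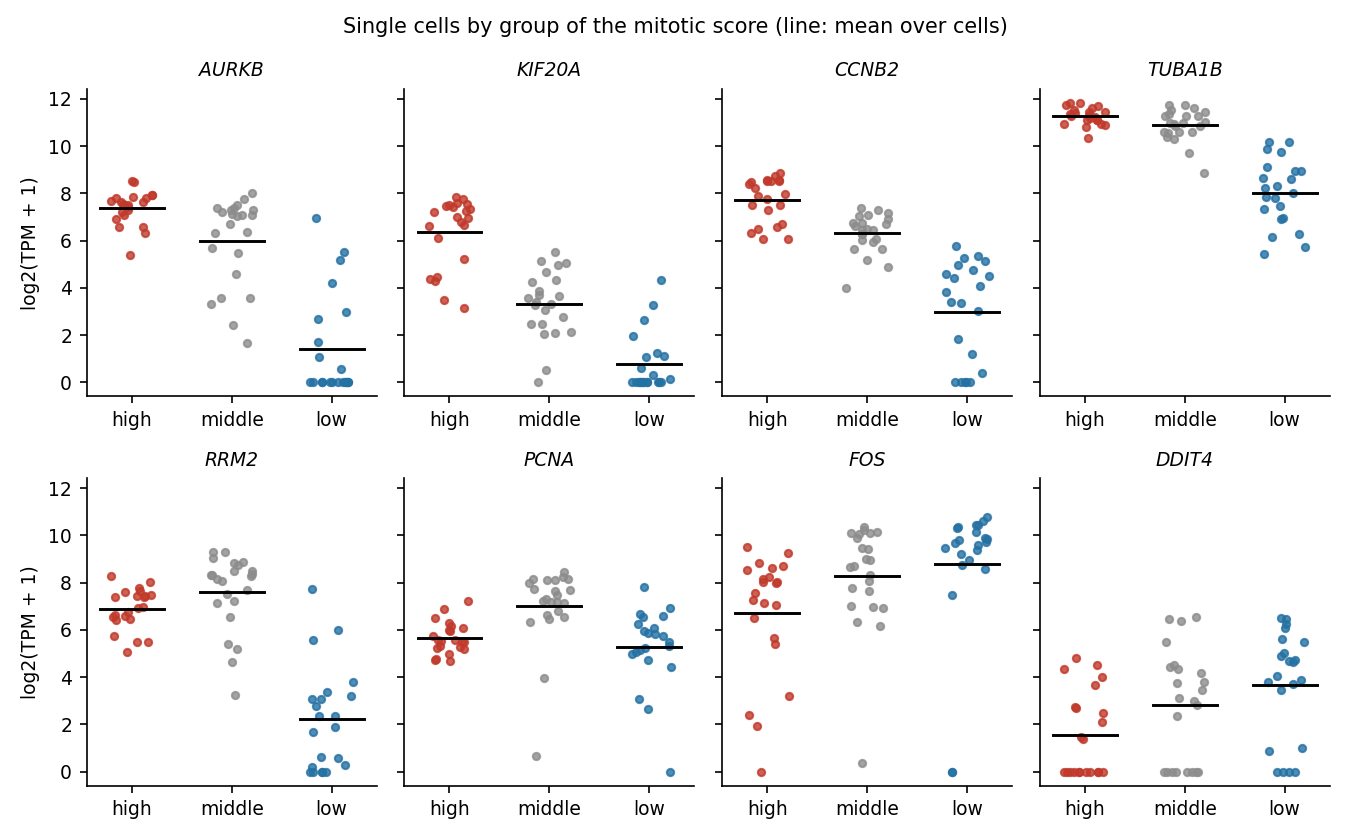
log2(TPM + 1) of 8 genes (y axis) in the 22 high, 23 middle and 22 low live HepG2 cells; each point is a cell and each black line the mean over cells. AURKB, KIF20A, CCNB2 and TUBA1B step down from high to low, RRM2 and PCNA are highest in the middle cells, and FOS and DDIT4 are highest in the low cells.

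Kinases, phosphatases and cyclins of mitotic entry followed the same order. Of 22 measured kinases, phosphatases and their partners, 19 were higher, with a median difference of 3.34. CDKN3, a phosphatase that acts on cyclin-dependent kinases, ran from 110.6 to 890 TPM in high cells and from 0 to 180.7 TPM in low cells, with medians of 464 and 17.4 TPM. CDK1 itself had a median of 132.9 TPM against 0.88 TPM and a difference of 4.64, and it was listed at 0 in 1 high cell. PBK, a kinase active in mitosis, had no overlap between its lowest high cell, 35.6 TPM, and its highest low cell, 34.8 TPM.

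Among 15 measured cyclins, 4 were higher and 1 was lower, and the median of 0.41 was near that of all genes. The cyclins of G2 and mitosis stood apart from the rest: CCNA2 ran from 27.4 to 192.4 TPM in high and from 0 to 26.3 TPM in low cells, and CCNB2 from 65.4 to 461 TPM and from 0 to 53.4 TPM. Both had no overlap, with differences of 5.23 and 4.71. CCNF, which takes part in protein destruction in G2, differed by 3.07, and CCND3, a cyclin of G1, by 1.31. CCND3 was within the limit after the rescaling, at 0.87, and in the 7 matched pairs, at 0.98. CCNE1, which acts at the start of S phase, was lower, by 1.05, and was listed at 0 in 16 high and 10 low cells. Its relative CCNE2 had a median of 48.9 TPM in middle cells, 7.56 TPM in high and 2.22 TPM in low cells, and the difference of 0.71 between high and low cells was -1.27 in the 7 matched pairs.

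The kinetochore, which ties chromosomes to the spindle, was represented by 34 measured genes, of which 29 were higher, with a median difference of 2.42. NDC80, of the complex that grips microtubules, had a median of 61.98 TPM in high and 0 TPM in low cells, where 14 of 22 cells were listed at 0. HJURP, the chaperone that loads the centromeric histone, had 60.9 TPM against 0.28 TPM, and NUF2, the partner of NDC80, 46.8 TPM against 0 TPM. SPC25, of the same complex, was highest in the middle cells, at 67.3 TPM, against 55.9 TPM in high and 1.58 TPM in low cells.

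Genes of the spindle checkpoint and the anaphase-promoting complex differed less as a list, with a median of 0.95. PTTG1 (securin), the inhibitor whose destruction frees separase, ran from 53.97 to 702 TPM in high cells with a median of 313 TPM, and from 0 to 245 TPM in low cells with a median of 2.03 TPM. The checkpoint genes TTK, BUB1B and MAD2L1 differed by 3.92, 3.73 and 3.46, while MAD1L1 and MAD2L1BP differed by 0.44 and 0.95. Of all 25 members 11 were higher, and the core subunits CDC27, CDC16 and ANAPC7 differed by 1.19, 1.08 and 1.06. The other measured subunits of the complex lay within the limit, from 0.11 for ANAPC10 to 0.99 for ANAPC15. After the rescaling by the median ratio 7 of 24 members were higher, which leaves out CDC27, CDC16 and ANAPC7, and in the 7 matched pairs CDC16 differed by -0.03.

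Chromatin genes gave smaller values. Of 29 members of the condensin, cohesin and chromatin list, 22 were higher, with a median of 1.74. Subunits particular to condensin I, NCAPH and NCAPG, differed by 4.19 and 3.84, and CDCA5 (sororin), which protects cohesion of sister chromosomes, by 3.84. NCAPD2, a further condensin subunit, differed by 3.39. RAD21, the cohesin subunit that separase cuts, had no overlap, with its lowest high cell at 48.5 TPM and its highest low cell at 37.6 TPM. H2AFZ, a histone variant made outside S phase too, had a median of 1789 TPM against 516 TPM.

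Transcription factors of the cell cycle were mostly within the limit. Of 23 measured factors, 5 were higher, and these were FOXM1 (2.55), MYBL2 (B-MYB, 2.21), E2F8 (1.91), the MuvB subunit LIN9 (1.44) and RBL1 (1.05). RBL1 was at 0.65 after the rescaling and LIN9 at 0.79 in the 7 matched pairs. FOXM1 had a median of 15.1 TPM in high, 9.32 TPM in middle and 0.41 TPM in low cells, and 14 of 22 high cells lay above every low cell. MYBL2 was highest in the middle cells, at 18.1 TPM, against 16.1 TPM in high and 3.04 TPM in low cells. Subunits of NF-Y (NFYA, NFYB and NFYC) lay between -0.05 and 0.55.

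**Figure D3:**
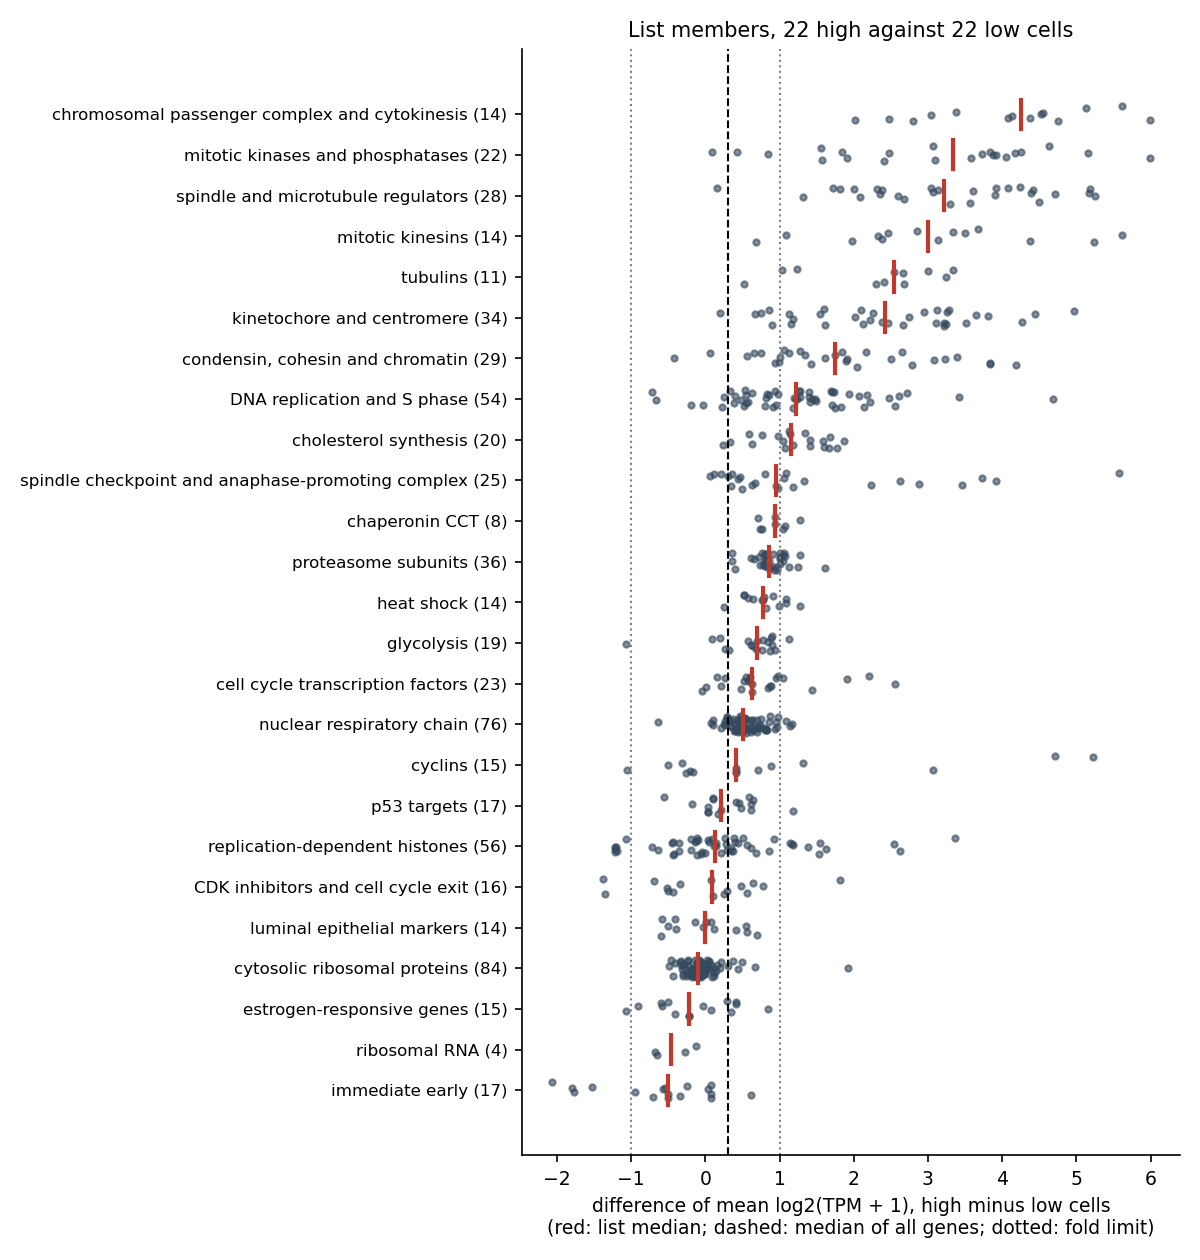
Difference of mean log2(TPM + 1), high minus low cells (x axis), for every measured member of the gene lists with several measured genes (y axis, number of genes in brackets). Each point is a gene and red bars are list medians. The dashed line is the median of all genes (0.30) and dotted lines mark -1 and 1. Mitotic lists lie to the right, from 4.26 for the passenger complex, and the immediate early list lies to the left, at -0.50.

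In all, the 11 cell cycle lists held 262 measured genes, of which 67.6% were higher and 1 (CCNE1) was lower. The 15 genes with the largest differences all belonged to these lists. Groups of cells did not overlap for 18 genes (0.143% of those compared), of which 15 were in a list. The 3 others, named after their values were seen, were SHCBP1, a partner of the cytokinesis machinery (19.98 to 100.3 TPM against 0.13 to 11.1 TPM), DTYMK, which makes thymidine diphosphate (114.5 to 264 TPM against 11.2 to 111.5 TPM), and CMC2, a mitochondrial protein (199.6 to 711 TPM against 33.2 to 199.1 TPM).

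Other large differences outside all lists, also chosen after their values were seen, were those of KPNA2, MXD3, TRIP13 and NEIL3. KPNA2, an importin that also regulates spindle assembly, ran from 184.7 to 3435 TPM in high and from 15.9 to 204 TPM in low cells. TRIP13, which recycles the checkpoint protein MAD2, had a median of 82.4 TPM against 6.61 TPM. MXD3, a member of the MAX network of transcription factors, had 30.7 TPM against 1.32 TPM. NEIL3, a DNA repair enzyme, was listed at 0 in all 22 low cells and had a median of 9.15 TPM in high cells.

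The promoter letters were counted in the 300 bases around each start, 250 before and 50 after it, on both strands, over all promoters of the RefSeq table and over those of genes higher by at least 1 (80.9% of 1212 genes matched) or by at least 3 (85.2% of 88 genes matched). CCAAT was found in 34.6% of all 35116 promoters, in 46.2% of those of genes higher by at least 1 and in 75.8% of those of genes higher by at least 3. CHR letters were found in 16.4%, 20.1% and 67.03%, and both together in 6.4%, 11.99% and 54.9%. By these letters alone, both elements were more frequent among the 88 genes than in the whole table, which also holds genes not compared here. In promoters of the S phase list, CHR letters were found in 7.7% and the E2F letters TTTGGCGC or TTTCGCGC in 21.5%, against 1.1% of all promoters. Of all genes compared 73.8% matched the table and of the lower genes 44.97%, too few for a share.

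Genes of DNA replication were highest in the middle cells. Of 54 measured members, 30 were higher in high than in low cells, with a median difference of 1.23. However, 51 of 54 had a larger mean in the middle than in the high cells, against 4399 of all 12577 genes. The mean of the list was 4.30 ± 0.50 (SD, n = 22) in high, 5.03 ± 0.89 (n = 23) in middle and 3.05 ± 1.15 (n = 22) in low cells. RRM2, the inducible subunit of ribonucleotide reductase, had a median of 311 TPM in middle, 120.9 TPM in high and 3.40 TPM in low cells. TK1, thymidine kinase, had 562, 356 and 52.6 TPM in the same order. CDC45, of the replicative helicase, had 59.1, 27.3 and 2.87 TPM.

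Within the S phase list, some genes had medians or differences that put high cells near or under low cells. PCNA, the sliding clamp, had a median of 46.2 TPM in high and 48.3 TPM in low cells, against 158.6 TPM in middle cells. Its difference in the mean of the logs, high minus low, was 0.38, above the all-gene median of 0.30. MCM6, a helicase subunit, had 16.8 TPM in high, 22.4 TPM in low and 43.6 TPM in middle cells, and a difference of -0.03 between high and low cells. UNG, which removes uracil from DNA, had a difference of -0.67 between high and low cells and 0.85 between middle and low cells. These 3 were named after their values were seen. Low cells were the most spread in this list, from 1.19 to 5.12, so that some low cells stood at the level of the middle cells and others far under it. After the rescaling 19 of 54 members were higher and 1 lower, and in the 7 matched pairs 14 were higher and 2 lower.

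**Figure D4:**
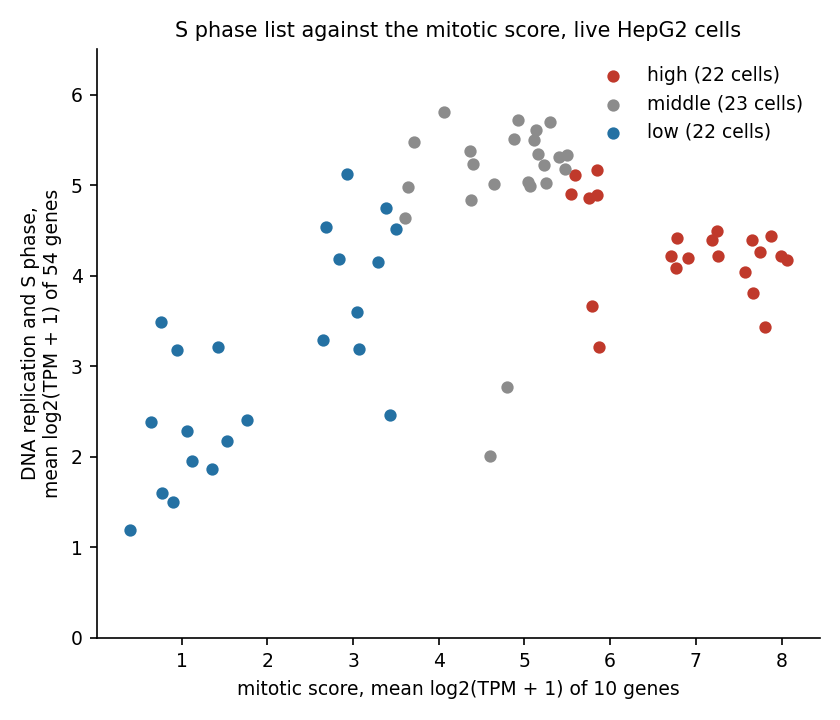
Mean log2(TPM + 1) of the 54 DNA replication and S phase genes (y axis) against the mitotic score (x axis) in the 67 live HepG2 cells; each point is a cell, coloured by group. The list is highest in the middle cells, at a mean of 5.03, and lower on either side, at 4.30 in high and 3.05 in low cells.

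Histone genes of the replication-dependent clusters went both ways, with 10 of 56 higher and 6 lower, and 7 higher and 8 lower after the rescaling. HIST1H4C had a median of 2171 TPM in middle, 790.0 TPM in high and 172.8 TPM in low cells. HIST1H3G and HIST1H2BJ differed by 3.36 and 2.63, and HIST1H2AJ, again highest in the middle cells, by 2.55. The lower genes HIST1H2AC, HIST1H2BG, HIST1H2BD, HIST1H4H, HIST2H2AA3 and HIST2H2AA4 had differences of -1.07 to -1.22 and were lower still in the middle cells, though HIST1H2BG differed by 0.19 in the 7 matched pairs. The last 2 of these have equal values in all cells, as near-identical copies, and are 1 measurement. Most replication-dependent histone RNAs carry no poly(A) tail, on which Smart-seq2 relies, so their values cover the tailed share of these RNAs.

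Genes of cell cycle exit and of p53 stood, as lists, under the median of all genes. Of 16 measured CDK inhibitors and exit genes, 1 was higher and 2 were lower, with a median of 0.09. CDKN2D, an inhibitor of the G1 kinases, had a median of 8.39 TPM in high and 0 TPM in low cells. KLF4, a factor of differentiation and arrest, had 2.85 TPM against 7.78 TPM, a difference of -1.39, and YPEL3, which is linked to senescence, 17.5 TPM against 32.9 TPM, a difference of -1.36 that was -0.66 in the 7 matched pairs. After the rescaling 1 exit gene was higher and 3 were lower. BTG1, an antiproliferative factor, had -0.69. CDKN1A (p21), the p53 target that stops the cell cycle, overlapped fully, from 0 to 42.9 TPM in high and from 0 to 197 TPM in low cells. Of 17 measured p53 targets 1 was higher, with a list median of 0.21. This was DDB2, a DNA damage sensor, with 47.6 TPM against 27.5 TPM and a difference of 1.18, which was 0.74 after the rescaling and 0.19 in the 7 matched pairs.

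Several immediate early genes were lower in high cells. These encode short-lived factors that cells switch on within minutes of a stimulus. Of 17 measured members, 4 were lower and none was higher, with a median of -0.50, and the summed list ran from 126.5 to 1614 TPM in high and from 171.2 to 2983 TPM in low cells. FOS ran from 0 to 717 TPM in high cells with a median of 220 TPM, and from 0 to 1760 TPM in low cells with a median of 821 TPM, a difference of -2.07. All 22 high cells lay under the median of the low cells, though the groups overlapped. EGR1 had a median of 16.3 TPM against 44.8 TPM, JUN 7.74 TPM against 22.5 TPM, and FOSB 1.79 TPM against 6.68 TPM. MYC, which is also a target of growth signals, differed by 0.07. After the rescaling 6 of 17 were lower, against 271 of 11691 genes. In the 7 matched pairs 7 of 17 were lower, against 671 of 12577 genes, and FOS differed by -3.24 there.

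Of the lower genes, 42 were small nucleolar RNAs, microRNA precursors or similar short genes, which made up 28.2% of the lower genes, but 4.09% of all genes compared, while 20 genes of this kind were higher. Of the 15 largest decreases 10 were of this kind: SNORD12C, SNORD52, SNORA72, SNORA12, SNORD104, MIR3671, MIRLET7D, MIR1204, MIR3064 and SNORD13, with differences from -2.87 to -1.89. In the 7 matched pairs SNORA12 and SNORD13 were within the limit, at -0.93 and -0.70. SNORD12C had a median of 74.7 TPM in low cells and was listed at 0 in 13 of 22 high cells. TPM divides by length, so a few reads give a large value in so short a gene, and reads of such a gene cannot be told apart from those of a host gene around it. In live HCT-116 cells split the same way SNORD12C differed by 2.68, in the other direction, and in fixed HepG2 cells by -0.07. MIR1204, MIR3064 and SNORD104 were lower in fixed HepG2 cells too, at -2.71, -1.33 and -1.19. SNORD52, SNORA12 and MIR3671 lay within the limit there, at -0.64, -0.38 and -0.67. SNORA72, MIRLET7D and SNORD13 had the other sign in those fixed cells, at 0.46, 0.46 and 0.67. In live HCT-116 cells SNORD52 and SNORA72 were also higher, by 1.54 and 1.07, and the rest of the named small RNAs lay within the limit.

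The other named decreases were AGR3, DDIT4, FOS, CAV1 and the antisense gene DICER1-AS1. AGR3, a protein disulfide isomerase of secretory cells, had a median of 4.41 TPM in high and 61.5 TPM in low cells, and ran up to 589 TPM and 488 TPM. DDIT4, a stress-induced inhibitor of the growth kinase mTOR, had 0.82 TPM against 19.8 TPM, and 20 of 22 high cells lay under the median of the low cells. CAV1, the coat protein of caveolae, had 5.57 TPM against 89.95 TPM, a difference of -1.83 that was -0.60 in the 7 matched pairs. DICER1-AS1 had 1.19 TPM against 10.5 TPM, and the libraries do not tell its strand from that of the gene opposite. All of these overlapped between the groups. Among further genes, chosen after their values were seen, CD44, a receptor for hyaluronan, had 4.78 TPM against 20.1 TPM, and KLK11, a secreted protease, 0.51 TPM against 15.2 TPM.

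Metabolic and housekeeping lists gave values that moved with the scaling, to different degrees. Of 20 genes of cholesterol synthesis and its control 14 were higher, with a median of 1.16. IDI1, which isomerises isopentenyl diphosphate, had a median of 118.1 TPM in high and 33.1 TPM in low cells, and INSIG1, which holds back the pathway when sterols are plentiful, 52.5 TPM against 17.2 TPM. MVK, mevalonate kinase, had 20.9 TPM against 7.52 TPM. After the rescaling 6 of 20 were higher, against 444 of 11691 genes, and 2 were below 0. In the 7 matched pairs 5 of 20 were higher, against 710 of 12577 genes. In fixed HepG2 and live HCT-116 cells split the same way 1 and 2 of these genes were higher. The list medians there were 0.63 and 0.50, against all-gene medians of 0.18 and 0.20.

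The proteasome list had 12 of 36 higher with a median of 0.86, the chaperonin CCT, which folds tubulin and actin, 3 of 8 with 0.94, and the heat shock list 3 of 14 with 0.78. All 36 proteasome genes and all 8 CCT genes differed by more than the all-gene median of 0.30. Among genes with a mean of at least 10 TPM the median was 0.55, and the lowest proteasome gene, at 0.36, lay under it. Among proteasome subunits PSMC3 differed most, by 1.61, followed by PSMD11, PSMD14 and PSMD12 at 1.27, 1.25 and 1.13. The 8 CCT genes lay between 0.70 and 1.28, the latter for CCT5. DNAJB1, a co-chaperone of HSP70, differed by 1.28, and HSPA8, the constitutive HSP70, by 1.09. After the rescaling 1 proteasome gene was higher and no CCT or heat shock gene was, and in the 7 matched pairs none of these lists had a higher gene, with medians of 0.26, 0.09 and 0.09. Genes of glycolysis (1 of 19 higher, LDHA at 1.13, and PFKM lower at -1.07) and of the nuclear respiratory chain (3 of 76 higher, SDHA at 1.16, NDUFA9 at 1.14 and NDUFB10 at 1.09) had medians of 0.70 and 0.51, which became 0.26 and 0.08 after the rescaling and -0.01 and 0.09 in the matched pairs, where LDHA differed by -0.02.

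Luminal and estrogen-responsive lists stood under the median of all genes. None of 14 measured luminal markers passed the limit in either direction, and their median was -0.01. ESR1 had a median of 47.6 TPM in high and 46.9 TPM in low cells and ran from 16.7 to 72.1 TPM and from 15.8 to 94.3 TPM. KRT18 and KRT8, keratins of simple epithelia, differed by 0.70 and 0.57 but by -0.18 and -0.27 in the 7 matched pairs, and AGR2 and GREB1, a pair of estrogen-induced genes, by -0.59 each. Of 15 estrogen-responsive genes 1 was lower, IGFBP5 at -1.07 (-0.40 in the 7 matched pairs), and their median was -0.21. After the rescaling the luminal median was -0.38, with 1 of 14 lower, and in the 7 matched pairs -0.55, with 3 lower. Cytosolic ribosomal proteins had a median of -0.09 over 84 genes, under the all-gene median, with 1 higher, RPL39L, at 1.92. After the rescaling 80 of 84 were below 0. The 4 ribosomal RNA genes lay between -0.13 and -0.68.

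The same score and the same kind of split were applied to cells that the rule did not use, 82 fixed HepG2 cells (27 high and 27 low) and 91 live HCT-116 cells (30 and 30). In fixed HepG2 cells 684 of 12190 genes were higher (5.61%) and 96 lower (0.788%), and in live HCT-116 cells 789 of 11796 (6.69%) and 91 (0.771%). Of the genes higher in live HepG2 cells, 436 were higher in fixed HepG2 cells too, which is 35.97% of the live list and 63.7% of the fixed list. In live HCT-116 cells 422 were shared, 34.8% and 53.5% of the lists. Of the lower genes 32 and 11 were shared, 21.5% and 7.38% of the live HepG2 list, and 11 were higher in HCT-116 instead. These shares depend on the number of cells and on the spread of the score in each set, which ran from 7.79 to 0.73 in fixed HepG2 and from 8.21 to 0.19 in live HCT-116 cells.

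**Figure D5:**
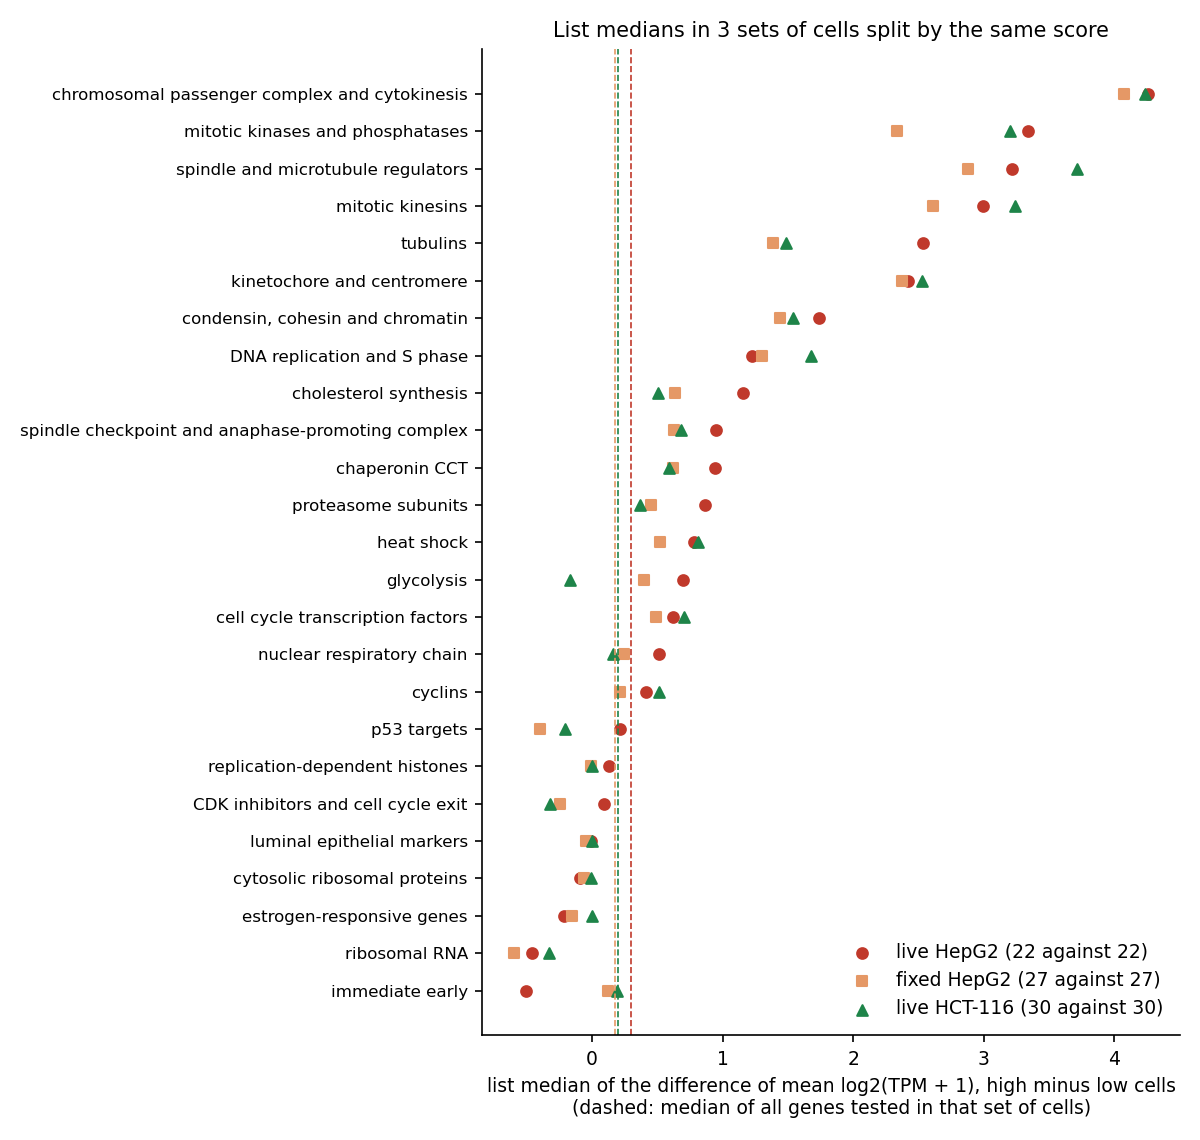
Median difference of mean log2(TPM + 1), high minus low cells (x axis), of the gene lists with several measured genes (y axis). The sets are live HepG2, fixed HepG2 and live HCT-116 cells. Each point is a list median and dashed lines are the medians of all genes tested in that set. The passenger complex list lies at 4.26, 4.08 and 4.24, and the immediate early list at -0.50 in live HepG2 cells and at 0.12 and 0.19 in the others.

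Mitotic lists had positive medians in all 3 sets, with values that differed between genes. AURKB differed by 5.99 in live HepG2, 6.26 in fixed HepG2 and 6.18 in live HCT-116 cells, KIF20A by 5.61, 5.51 and 5.27, and CCNB2 by 4.71, 3.99 and 4.47. PTTG1 differed by 5.57, 5.05 and 3.69, and CDKN3 by 5.16, 3.96 and 4.17. The median of the mitotic kinase and phosphatase list was 3.34, 2.33 and 3.20. Of the 14 passenger complex genes 14 were higher in each set. The tubulin median was 2.54, 1.38 and 1.49, while TUBA1B differed by 3.24, 2.98 and 2.76. DDIT4 was lower in all 3 sets, with differences of -2.13, -2.43 and -1.52. FOS differed by -2.07, -1.74 and 0.82, EGR1 by -1.79, -1.01 and 1.07, and CAV1 by -1.83, -0.87 and 1.08, so the sign was negative in both HepG2 sets and positive in HCT-116. Whether the sets differ beyond their spread was not tested, since each set is 1 sample.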

How the data were processed

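Single-cell Smart-seq2 libraries of HepG2 and HCT-116 cells were used, live or fixed in methanol. The authors trimmed the reads, quantified them with kallisto (version 0.46.0 in the submitters' processing notes, which also name the build GRCh38) and summed transcripts to genes with tximport, keeping cells above a minimum number of detected genes. The deposited gene values are TPM. The deposited HepG2 transcript values, labelled TPM, behave as CPM. They served here for the total reads of a cell and for the share of reads assigned. The commonest value of a cell, leaving out the very smallest, was taken as that of a single read. This gave the total reads (to 0.1 M, where M is 10 to the power 6).

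The score and the groups are as described above. Values were taken as log2(TPM + 1), genes with a mean under 1 TPM were left out, and the score genes were left out of all lists. A gene was counted past a difference of 1. With all cells of 1 sample and groups chosen from their own RNA, no test was made and depth is given per group; few reads behind a low TPM widen its error. Named are the 15 largest increases and decreases among genes with a mean of at least 5 TPM, and in each of 29 lists up to 4 members with the largest difference, or all of lists of up to 12; further genes were named after their values were seen. The members and the lists were chosen with earlier results of these data known. No mitochondrial genome gene was listed in the table. Median ratios rested on 7659 genes with values above 0 in 90% or more of the cells. Scripts were tested on simulated data and run with Python 3.11.15, numpy 2.4.6, pandas 2.3.3 and matplotlib 3.10.9. Alternatives were another pseudocount, the ratio of mean TPM, other filters, other scalings, fewer cells, matched cells, scores without each gene and the left-out column, and, chosen after seeing the data, cells with under 60% of reads assigned left out, column 67 left out and cells matched on assigned reads. The HCT-116 transcript table was not used here.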

Additional observations from a re-analysis of the deposited data

How the results depend on the processing

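The counts of higher and lower genes moved with the scale. As reported, 1212 genes were higher and 1.18% of genes lower. The counts were 2713 higher and 575 lower with a pseudocount of 0.1, 790 and 486 by the log2 ratio of mean TPM, 444 and 271 after rescaling by the median ratio, 2551 and 269 for the top 11 against the bottom 11 cells, and 710 and 671 in the 7 pairs matched on assigned reads, which were set up after the data had been seen. Among genes with a mean of at least 10 TPM 74 were lower. Of the members of the lists, 15 were lower, against 25 after the rescaling and 26 in the matched pairs. Of 255 genes followed that were past the limit, 82 were not past it on the same side in the matched pairs, and 5 of these changed sign: CDC16 (-0.0336), CDC6 (-0.12), HIST1H2BG (0.19), HIST1H3I (-0.0515) and LDHA (-0.0183). Of 409 genes followed within the limit, 31.3% changed sign there. Fewer cells were compared there, with another mix of scores, and the cause was not tested. Over 24 alternatives and 664 genes, 15593 of 15932 gene values stayed within 1 SD over cells of the reported value. None of the 15 named increases or 15 named decreases changed sign. Part of this was fixed in advance, because the other filters on low values could not move a gene value. Scores without TOP2A, CCNB1, CENPF, UBE2C or TPX2 kept the same 44 cells and could not move one either. An SD over single cells is also a wide limit. List medians stayed within 1 SD in 616 of 645 cases. Scores without each gene in turn gave 1104 to 1212 higher genes.

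No paired analysis was possible because neither the labels nor the column names pair the cells, and no test was made. Values over cells of 1 sample do not show how cultures vary, genes at a few TPM rest on few reads, and the 2 HepG2 experiments cannot be told apart.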
